A study of Homo sapiens with 10 samples.

Results

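The aryl hydrocarbon receptor (AHR) pathway was examined through 7 genes, namely the receptor AHR, its partner ARNT, its repressor AHRR, the cytochrome P450 genes CYP1A1, CYP1A2 and CYP1B1, and the feedback gene TIPARP. The genes were taken by name, and each was read from the transcript cluster (a set of probes that the array reports as 1 value) that carried its symbol. They made up 7 of the 21214 clusters with a gene symbol and 7 of the 33297 clusters in all. AHRR has no cluster of its own, since its cluster also carries PDCD6, a calcium-binding protein gene, and the 2 genes cannot be told apart there. The set was chosen by name, as the core of a known pathway, with earlier results of the same arrays in view. The only measured value that the choice of clusters used was the mean level of a gene's clusters over the arrays, and each gene had 1 cluster. For these reasons the differences below describe them and are not independent evidence about the pathway.

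The arrays were Affymetrix Human Gene 1.0 ST arrays of THP-1 cells, a human monocytic leukaemia line that takes on a macrophage form when treated with the phorbol ester PMA. All cells received PMA for 24 h and then, for 24 h, either the solvent DMSO (3 arrays, culture passages 6, 7 and 8), punicalagin, an ellagitannin of pomegranate, at 10 µM (3 arrays, the same passages), myricetin (2 arrays, passages 7 and 8) or quercetin (2 arrays, passages 7 and 8). Myricetin and quercetin are flavonols of plants that differ by 1 hydroxyl group, which myricetin carries in addition on its B ring. The labels give no dose for either flavonol, so whether their doses matched each other or that of punicalagin is not known. All groups come from 1 cell line, and each p-value measures the spread between cultures of that line at different passages.

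AHR is a transcription factor that waits in the cytoplasm with chaperones until a small molecule binds it, and flavonoids are among the plant compounds known to bind it. It then enters the nucleus, pairs with ARNT and binds DNA at a core motif in the control regions of its targets, of which the CYP1 enzymes of xenobiotic metabolism are the best known. AHRR competes with the receptor for ARNT, and TIPARP, a mono-ADP-ribosyltransferase, modifies the receptor and limits its activity, so that both genes are targets as well as brakes.

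The core motif GCGTG was searched on both strands of the 250 bases before each RefSeq start (GRCh38.p14). The reason was that CYP1B1 and TIPARP were both lowest in the quercetin arrays. Promoter entries were matched for 6 of the 7 genes, with 9 starts between them. CYP1B1 was not matched, so its promoter could not be compared with that of TIPARP. Of the 35116 promoters in the table, 32.2% held at least 1 match and 10.2% held 2 or more. The first TIPARP start held 2 matches and the CYP1A1 start held 1, and these sequences are shown with the matches in capitals (CACGC is GCGTG read on the opposite strand). The TIPARP stretch lies at chr3:156674340-156674589 on the plus strand and the CYP1A1 stretch at chr15:74725529-74725778 on the minus strand, both written 5′ to 3′ and ending at the base before the start.
TIPARP: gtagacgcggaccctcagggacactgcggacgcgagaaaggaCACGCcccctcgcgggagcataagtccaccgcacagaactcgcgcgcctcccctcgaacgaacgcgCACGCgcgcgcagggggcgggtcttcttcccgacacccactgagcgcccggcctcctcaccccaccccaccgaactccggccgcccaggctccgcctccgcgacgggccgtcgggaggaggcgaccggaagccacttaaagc
CYP1A1: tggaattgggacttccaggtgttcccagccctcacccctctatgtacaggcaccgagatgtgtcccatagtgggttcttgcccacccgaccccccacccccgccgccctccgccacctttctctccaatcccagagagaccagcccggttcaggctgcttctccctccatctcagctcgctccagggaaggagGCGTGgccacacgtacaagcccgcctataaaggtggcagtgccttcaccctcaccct
AHRR held 1 match before its first start and 2 before its second, while the starts of AHR, ARNT and CYP1A2 and the other TIPARP starts held none within this window. A longer form of the motif, TNGCGTG, was searched as well and is held by 4.52% of all promoters. It had 1 match before the first AHRR start, and none before the TIPARP and CYP1A1 starts or any other start of the 6 genes. A match describes letters in the sequence and not binding, and the arrays did not measure binding.

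Values are log2 intensities, so that a difference of 1 is a doubling of the signal. In 10 of 10 arrays AHR, ARNT, the AHRR cluster, CYP1B1 and TIPARP lay above the median of the clusters with a symbol, which was 5.55 to 5.61. CYP1A1 lay below the lower quartile of 4.10 to 4.27 in 10 of 10 arrays. CYP1A2 lay below the median, although not below the lower quartile, in 10 of 10. As a check of the labelled cells, markers were set against another median, that of all 33297 clusters of an array, which was 5.14 to 5.25. In every array 9 of 9 measured markers shared by monocytes and macrophages lay above it. By contrast, 4 of 4 T lymphocyte and 3 of 3 B lymphocyte markers lay below it. Of other cell types, 1 of 4 fibroblast markers with DMSO and 2 of 4 with each compound, and 1 of 5 hepatocyte markers in each group, lay above it in all arrays of the group. These lists do not tell a macrophage from a monocyte. The summed signal of the monocyte and macrophage markers was 13.4 to 13.6 with DMSO, 13.5 to 13.6 with myricetin, 13.7 to 14.2 with punicalagin and 13.92 to 13.98 with quercetin (log2), and its part in the differences below was not tested. In a bulk culture fewer cells of a kind and less RNA per cell cannot be told apart.

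Quercetin went with low CYP1B1 and low TIPARP, and neither punicalagin nor myricetin moved any of the 7 clusters past the threshold of an adjusted p of 0.05 in limma (Benjamini-Hochberg over the 21214 clusters). With quercetin, 2 of 7 clusters passed the test, both lower than with DMSO, against a background of 3.92% of all clusters in either direction and 1.13% lower. With punicalagin 0 of 7 passed against 2.33% of all clusters, and with myricetin 0 of 7 passed against 0.509%. At an unadjusted p under 0.05 these counts were 2 of 7 for punicalagin, against 12.3% of all clusters, and 1 of 7 for myricetin, against 8.62%. The median difference from DMSO over the 7 clusters was -0.28 with punicalagin, -0.02 with myricetin and -0.19 with quercetin, while over all clusters it was -0.05, 0.00 and -0.04. The 3 comparisons share the same DMSO arrays and are given side by side for that reason. Their shares of all clusters, here and below, come from unlike fits. The fit for punicalagin held only the punicalagin and DMSO arrays, and that for the flavonols held all 10 arrays. On all 10 arrays 1014 clusters passed the adjusted threshold for punicalagin, against 832 for quercetin. The shares therefore do not rank the compounds by the breadth of their response.

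**Figure D1:**
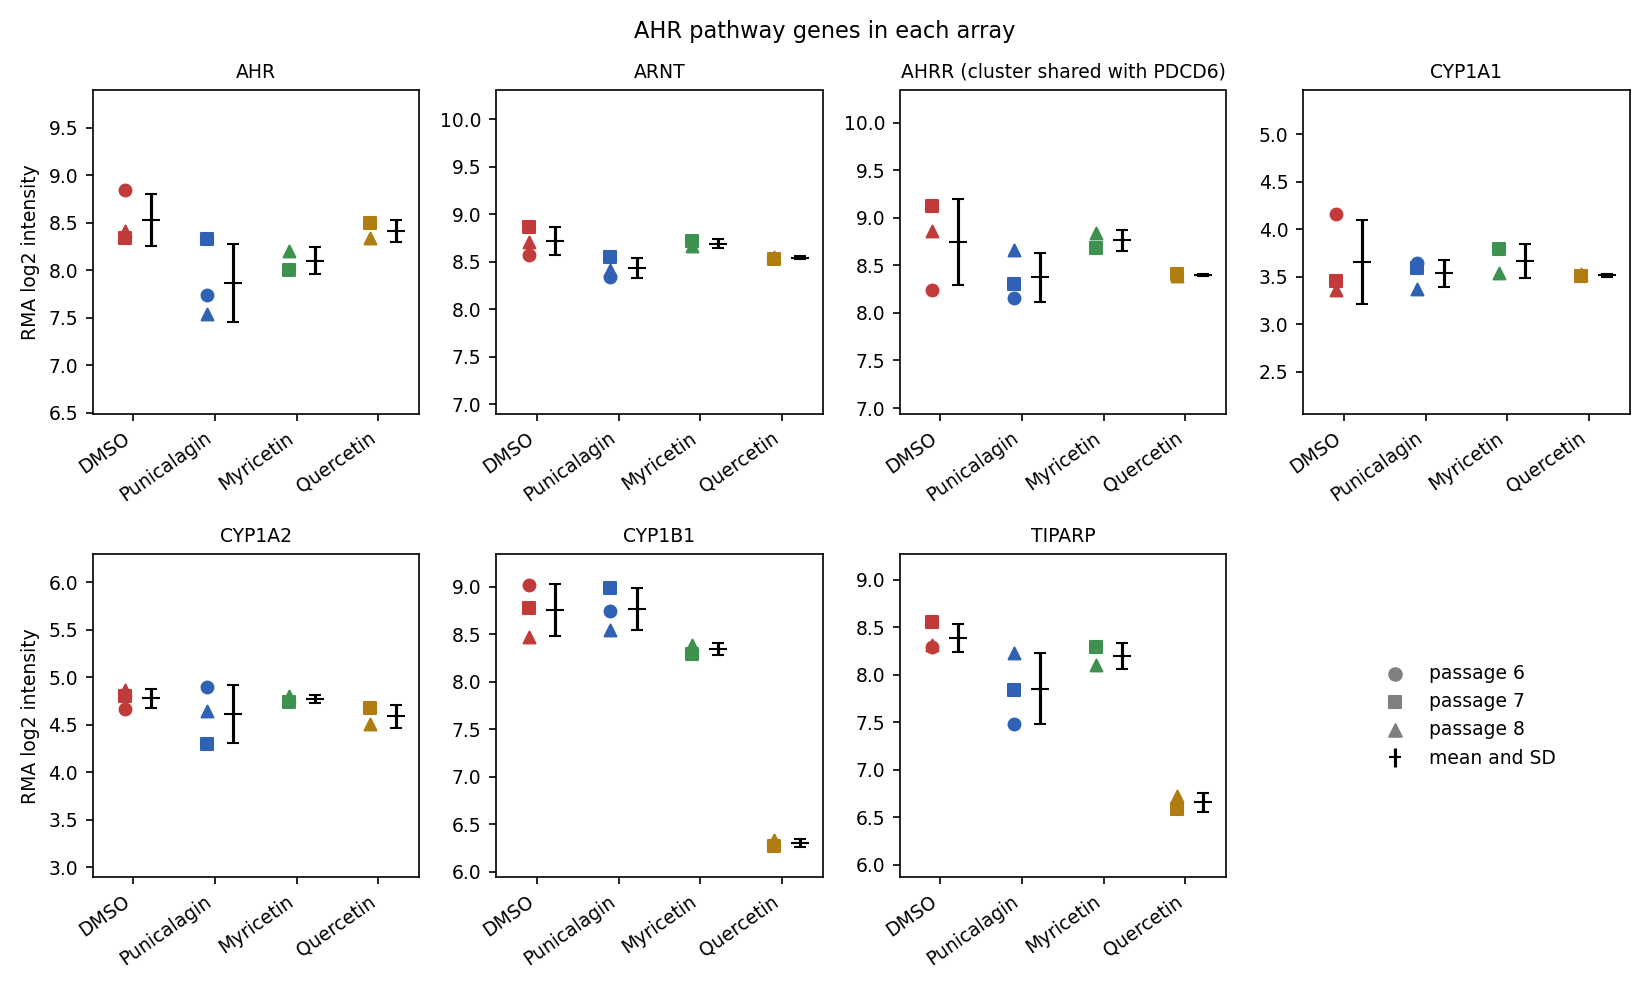
RMA log2 intensity (vertical axis) of the 7 clusters in each array, by treatment, where circles stand for passage 6, squares for passage 7 and triangles for passage 8, beside the mean and SD of each group (n = 3, 3, 2 and 2). Every panel spans the same number of log2 units, and the quercetin arrays lie far below all others for CYP1B1 (6.27 and 6.33) and TIPARP (6.59 and 6.73).

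The receptor itself was described first. AHR measured 8.84, 8.34 and 8.41 with DMSO at passages 6, 7 and 8, and 7.74, 8.32 and 7.54 in the punicalagin arrays of the same passages. It measured 8.00 and 8.20 with myricetin and 8.50 and 8.33 with quercetin. The 3 punicalagin values lay below the 3 DMSO values, but the highest of the former and the lowest of the latter, both of passage 7, differed by 0.01 only. The mean was 7.87 ± 0.41 with punicalagin and 8.53 ± 0.27 with DMSO (SD, n = 3), a difference of -0.66 (standard error 0.23, 95% interval -1.18 to -0.15). This difference did not pass the test (limma, adjusted p = 0.245), and within passages 6, 7 and 8 it was -1.10, -0.01 and -0.87.

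With myricetin AHR differed from DMSO by -0.43 (95% interval -0.93 to 0.07, limma adjusted p = 0.669), without overlap of the arrays. With quercetin it differed by -0.11 (95% interval -0.61 to 0.39, limma adjusted p = 0.9004), and the arrays overlapped with those of DMSO. In the quercetin arrays, where CYP1B1 and TIPARP were lowest, AHR thus lay below the DMSO mean by less than the SD of the DMSO arrays. The DMSO array of passage 6, which held the highest AHR value and the highest CYP1A1 value among the controls, also stood apart from the rest, with a mean correlation of 0.969 with the other 9 arrays against 0.977 to 0.983 for those. Over the arrays of passages 7 and 8 alone the quercetin difference of AHR was 0.04, of opposite sign.

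ARNT, the partner that AHR needs to bind DNA, varied least of the 7 clusters, over a range of 0.52 across the 10 arrays. It measured 8.57, 8.86 and 8.71 with DMSO, 8.34, 8.55 and 8.41 with punicalagin, 8.72 and 8.66 with myricetin, and 8.53 and 8.55 with quercetin. The punicalagin and the quercetin arrays lay just below the DMSO arrays, by gaps of 0.02 between the nearest values. The differences of -0.28 with punicalagin (limma adjusted p = 0.507) and -0.17 with quercetin (limma adjusted p = 0.668) did not pass the test, and with myricetin the difference was -0.02.

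The cluster shared by AHRR and PDCD6 measured 8.24, 9.12 and 8.86 with DMSO, 8.16, 8.30 and 8.66 with punicalagin, 8.69 and 8.84 with myricetin, and 8.41 and 8.39 with quercetin. The DMSO arrays spread over 0.88, with the array of passage 6 lowest, and all 3 treatments overlapped with them. No difference from DMSO passed the test, at -0.37 with punicalagin, 0.02 with myricetin and -0.35 with quercetin. Because PDCD6 shares the probes, nothing can be said of AHRR alone.

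Turning to the target enzymes, CYP1A1, whose induction is the classical readout of the receptor, was dim throughout. It measured 4.16, 3.45 and 3.36 with DMSO, 3.64, 3.60 and 3.37 with punicalagin, 3.79 and 3.54 with myricetin, and 3.51 and 3.53 with quercetin. The highest of these 10 values was a control, and all 3 treated groups overlapped with DMSO. The differences were -0.12, 0.01 and -0.14, with 95% intervals that reached no higher than 0.37, 0.49 and 0.34. A rise of CYP1A1 by 1 log2 unit over DMSO lay outside all 3 intervals, but a cluster this dim can understate a change in the RNA.

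CYP1A2, a neighbour of CYP1A1 that liver cells express, behaved in the same way. It measured 4.67, 4.80 and 4.87 with DMSO, 4.90, 4.29 and 4.64 with punicalagin, 4.74 and 4.80 with myricetin, and 4.68 and 4.50 with quercetin. All groups overlapped with DMSO, and the differences were -0.17, -0.01 and -0.19, none past the test.

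CYP1B1, the CYP1 enzyme that is found in many tissues outside the liver and in macrophages, was the target with a large difference. It measured 9.01, 8.77 and 8.47 with DMSO and 8.75, 8.99 and 8.55 with punicalagin at passages 6, 7 and 8. It measured 8.30 and 8.39 in the myricetin arrays and 6.27 and 6.33 in the quercetin arrays of passages 7 and 8. DMSO and punicalagin overlapped fully, myricetin lay just below them, and the quercetin arrays lay at least 1.96 below every other array.

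With quercetin CYP1B1 had a mean of 6.30 ± 0.04 (SD, n = 2) against 8.75 ± 0.27 with DMSO (SD, n = 3), which is 5.47-fold lower (log2 difference -2.45, standard error 0.18, 95% interval -2.84 to -2.06, limma adjusted p = 3.23e-05). This was the largest fall of all 21214 clusters between quercetin and DMSO. The difference was -2.50 within passage 7 and -2.14 within passage 8. It passed the test in 12 of 12 alternative settings, with adjusted p-values of up to 0.0113. With punicalagin the difference was 0.01 (95% interval -0.41 to 0.43, limma adjusted p = 0.993). With myricetin it was -0.41 (95% interval -0.80 to -0.02), which passed at an unadjusted limma p of 0.0414 but not after adjustment (0.545).

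TIPARP, the feedback gene, was also lowest with quercetin. It measured 8.29, 8.55 and 8.31 with DMSO and 7.48, 7.84 and 8.23 with punicalagin in passages 6, 7 and 8. It measured 8.29 and 8.10 with myricetin and 6.59 and 6.73 with quercetin in passages 7 and 8. The quercetin arrays lay below every other array by a gap of 0.76, the punicalagin arrays lay below the DMSO arrays by a gap of 0.05, and myricetin overlapped with DMSO.

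With quercetin TIPARP had a mean of 6.66 ± 0.10 (SD, n = 2) against 8.38 ± 0.15 with DMSO (SD, n = 3), which is 3.30-fold lower (log2 difference -1.72, standard error 0.20, 95% interval -2.16 to -1.29, limma adjusted p = 5.78e-04). It ranked 8 among all clusters by the size of the fall, and 7 among the 239 that fell past the test. The difference was -1.96 within passage 7 and -1.58 within passage 8, and it passed in 12 of 12 alternative settings with adjusted p-values of up to 0.0295. With punicalagin the difference was -0.53 (95% interval -0.98 to -0.08, limma adjusted p = 0.307, before adjustment 0.0271), and within passages 6, 7 and 8 it was -0.80, -0.71 and -0.08. With myricetin it was -0.18 (95% interval -0.62 to 0.25, limma adjusted p = 0.908).

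**Figure D2:**
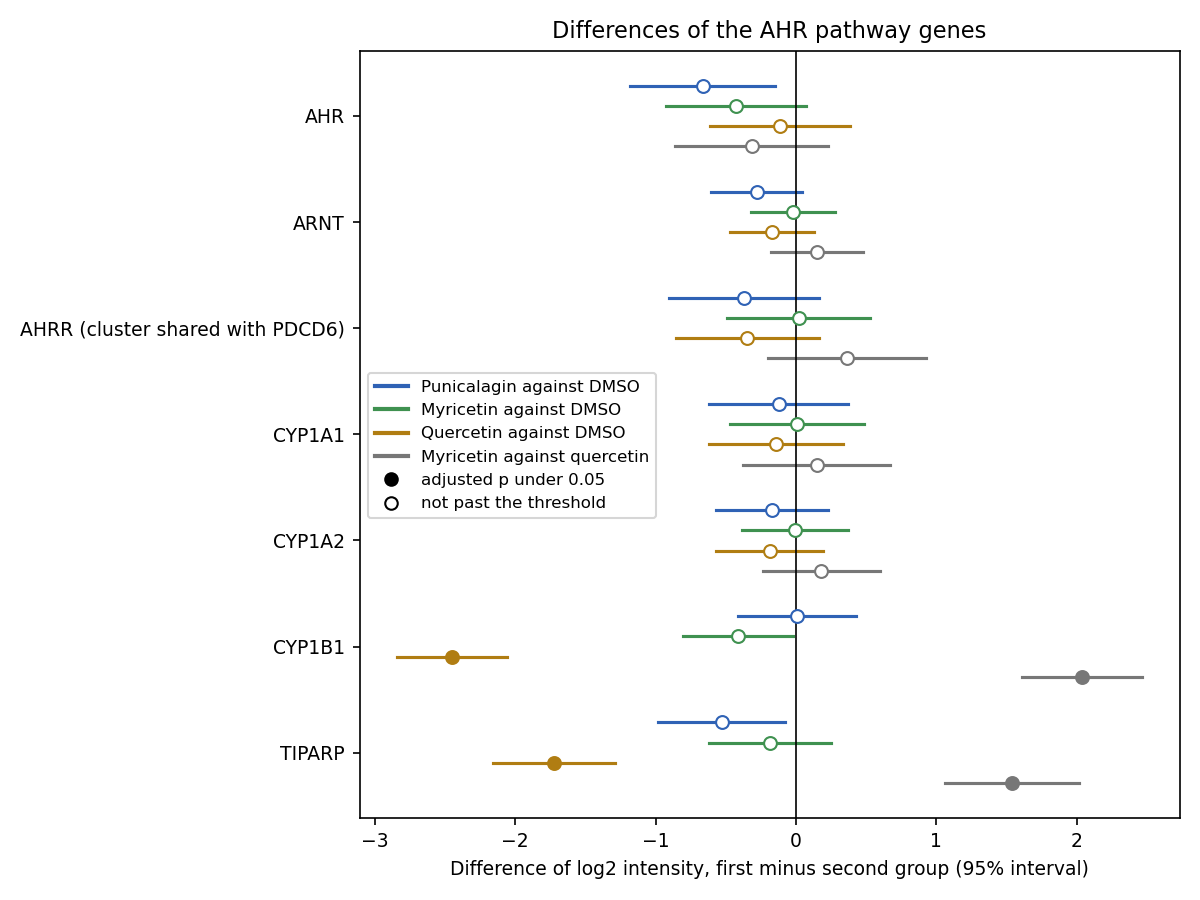
Difference of log2 intensity between groups (horizontal axis, first minus second group) for the 7 clusters, with 95% intervals from limma, in blue for punicalagin against DMSO, green for myricetin against DMSO, ochre for quercetin against DMSO and grey for myricetin against quercetin. Filled points passed an adjusted p of 0.05, which in these 4 comparisons were CYP1B1 and TIPARP with quercetin, against DMSO (-2.45 and -1.72) and against myricetin (2.04 and 1.54).

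The extent of these falls can be read against all other clusters. With quercetin 593 clusters (2.8%) rose and 239 fell past the test. In the plot of all differences CYP1B1 stands at the left end for quercetin, while for myricetin it ranks 751 by the size of the fall. Without overlap between quercetin and DMSO were ARNT, CYP1B1 and TIPARP, 3 of 7 clusters against 31.8% of all clusters. For punicalagin these were AHR, ARNT and TIPARP, 3 of 7 against 17.5%, and for myricetin AHR and CYP1B1, 2 of 7 against 23.7%.

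**Figure D3:**
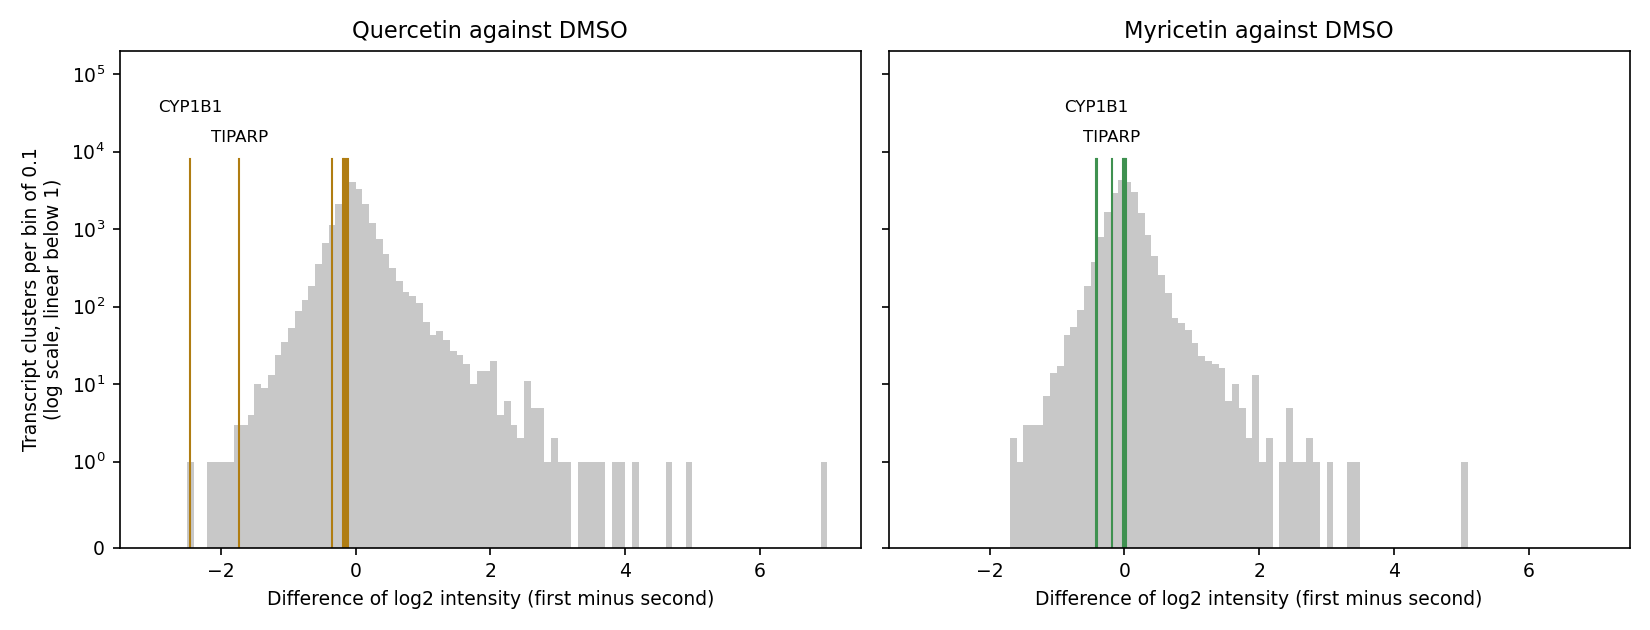
Number of clusters (vertical axis, log scale that is linear below 1) by their difference of log2 intensity from DMSO (horizontal axis, bins of 0.1) for quercetin and myricetin, with coloured lines at the 7 AHR pathway clusters. With quercetin CYP1B1 is at -2.45 and TIPARP at -1.72, in the left tail, and with myricetin they are at -0.41 and -0.18.

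The flavonols were then compared directly, as they differ by a single hydroxyl group. In 2 of 7 clusters the difference passed the test, both higher with myricetin, against a background of 1.7% in either direction and 0.537% higher. CYP1B1 was 4.11-fold higher with myricetin than with quercetin (log2 difference 2.04, standard error 0.20, 95% interval 1.61 to 2.47, limma adjusted p = 6.36e-04), with 2.02 within passage 7 and 2.05 within passage 8. TIPARP was 2.91-fold higher (log2 difference 1.54, standard error 0.22, 95% interval 1.06 to 2.02, limma adjusted p = 0.00529), with 1.71 and 1.37 within the passages. The TIPARP call was lost without myricetin replicate 1 (adjusted p = 0.0959), quercetin replicate 1 (0.0798) or quercetin replicate 2 (0.0567), and the log2 difference then was 1.44, 1.47 and 1.61.

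The other 5 clusters did not pass between the flavonols, and their intervals leave room for moderate differences in either direction. AHR differed by -0.32 (95% interval -0.86 to 0.23), ARNT by 0.15 (-0.18 to 0.48) and the AHRR cluster by 0.36 (-0.20 to 0.92). CYP1A1 differed by 0.15 (-0.38 to 0.67) and CYP1A2 by 0.18 (-0.23 to 0.60). With 2 arrays a group, 7 of 7 clusters did not overlap, against 55.7% of all clusters. Neither dose is given, so a difference in dose and a difference in structure cannot be told apart.

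Against punicalagin, quercetin again stood out. CYP1B1 was 5.50-fold higher with punicalagin than with quercetin (log2 difference 2.46, standard error 0.18, limma adjusted p = 1.09e-04), and TIPARP was 2.29-fold higher (log2 difference 1.20, standard error 0.20, limma adjusted p = 0.00787). These were 2 of 7 clusters, against a background of 3.91% in either direction and 2.06% higher. Without overlap were AHR, CYP1B1 and TIPARP, 3 of 7 against 36.1% of all clusters. The TIPARP call was lost without quercetin replicate 1 (adjusted p = 0.144) or replicate 2 (0.0636). Between punicalagin and myricetin 0 of 7 clusters passed, against 0.528% of all clusters. CYP1B1, at a difference of 0.42 (95% interval 0.03 to 0.81), had an unadjusted limma p of 0.0380 and an adjusted p of 0.510. Without overlap were ARNT, the AHRR cluster and CYP1B1, 3 of 7 against 27.4%.

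CYP1B1 and TIPARP had a Pearson's r of 0.857 over the 10 arrays, and both were lowest in the quercetin arrays. With punicalagin they differed from DMSO by 0.01 and -0.53, and with myricetin by -0.41 and -0.18. AHR followed neither (r -0.16 with CYP1B1 and -0.10 with TIPARP). These correlations describe 10 arrays that fall into 4 groups, with the quercetin arrays far from the others, and carry no test. The clusters whose values were most like CYP1B1 were CSF2RB, the shared beta chain of the GM-CSF, IL-3 and IL-5 receptors (r 0.952), CD37, a leukocyte tetraspanin (r 0.940), and LILRB1, an inhibitory receptor for class I MHC (r 0.935). Those most like TIPARP were WWC3 (r 0.961), EPS15, an adaptor of endocytosis (r 0.959), and SNX30, a sorting nexin (r 0.957). Those most like AHR were PYGO2, a Wnt pathway cofactor (r 0.970), MEN1, which encodes menin (r 0.966), and UBA1, a ubiquitin-activating enzyme (r 0.956).

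Beyond the 7 genes, 15 of 18 listed genes that have been reported as AHR targets were measured. With punicalagin 2 of 15 rose (SCIN and SLC7A5), with myricetin 0 of 15, and with quercetin 2 of 15 (EREG and SCIN), with 0 of 15 lower for each, and the median difference was 0.11, 0.09 and 0.18. Over all clusters 2.33% passed with punicalagin, 0.509% with myricetin and 3.92% with quercetin (2.8% higher and 1.13% lower), and in lists this short a count of 0 or 1 is near these shares. NQO1, a quinone reductase, and POLK, a DNA polymerase, had the lowest quercetin differences of the list at -0.63 and -0.55, and neither passed.

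EREG, the growth factor epiregulin, measured 5.46, 5.33 and 5.20 with DMSO, 5.71, 5.68 and 5.85 with punicalagin, 5.73 and 5.62 with myricetin, and 6.53 and 6.45 with quercetin. It rose with quercetin 2.23-fold (log2 difference 1.16, standard error 0.13, limma adjusted p = 6.06e-04) and passed in 12 of 12 alternatives. Quercetin thus gave the highest EREG values and the lowest CYP1B1 and TIPARP values of the 10 arrays. EREG was lower with myricetin than with quercetin (myricetin minus quercetin -0.82, limma adjusted p = 0.0208), a call that was lost without either myricetin or either quercetin array, with adjusted p-values of up to 0.192.

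SCIN, the actin-severing protein adseverin, measured 4.85, 4.66 and 4.61 with DMSO, 6.14, 6.35 and 6.75 with punicalagin, 6.34 and 5.43 with myricetin, and 5.94 and 6.12 with quercetin. Every treated array lay above every DMSO array. The log2 difference was 1.71 with punicalagin (limma adjusted p = 0.00263), 1.32 with quercetin (0.0115, lost without either quercetin array at up to 0.158) and 1.18 with myricetin (0.0766). SLC7A5, the light chain of a large neutral amino acid transporter, measured 7.71, 7.32 and 7.08 with DMSO and 10.29, 10.27 and 8.44 with punicalagin. It measured 8.06 and 9.13 with myricetin and 8.25 and 8.44 with quercetin, all above the DMSO arrays. With punicalagin it rose 4.93-fold (log2 difference 2.30, limma adjusted p = 0.0344). That call was lost without DMSO replicate 2 or 3 or punicalagin replicate 1 or 2, at up to 0.189 for these. The SLC7A5 differences of 1.22 with myricetin (limma adjusted p = 0.481) and 0.98 with quercetin (0.396) did not pass.

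**Figure D4:**
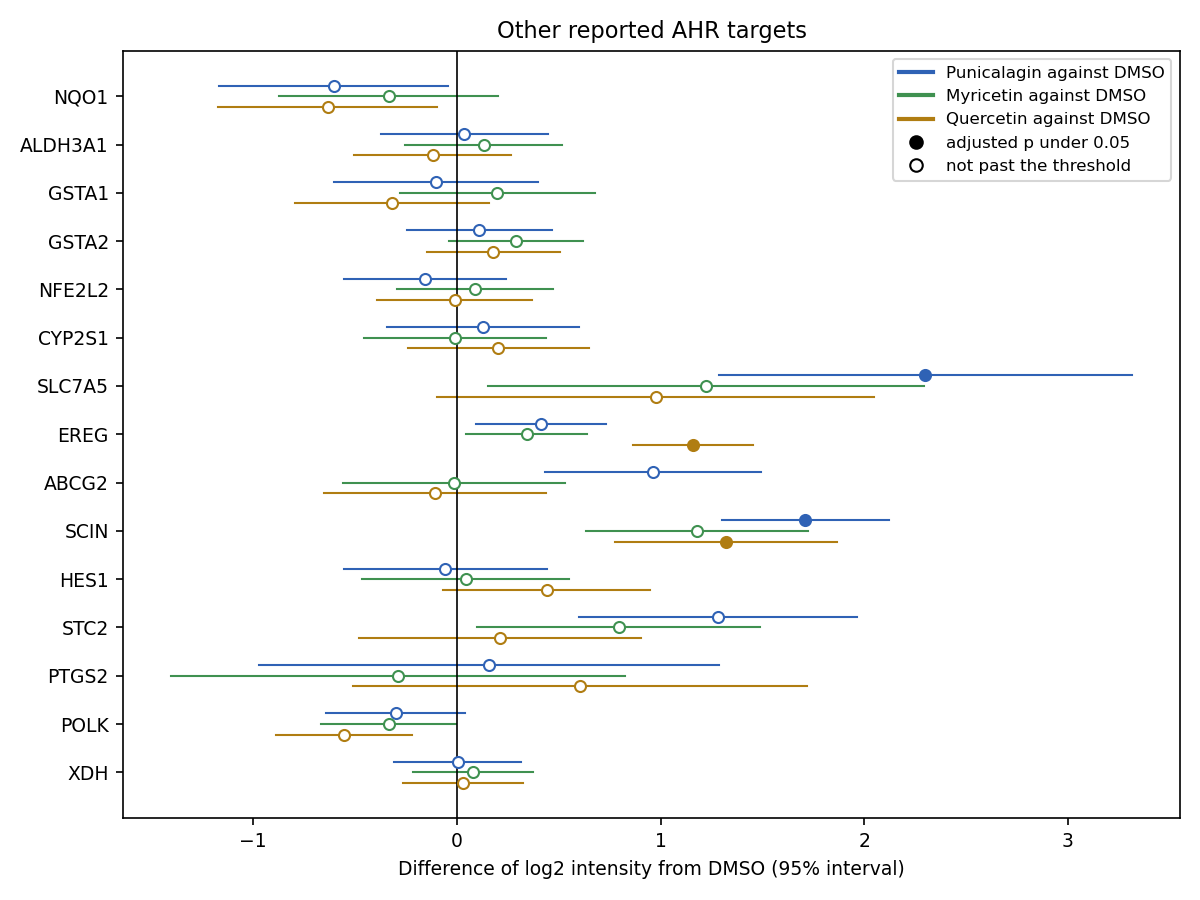
Difference of log2 intensity from DMSO (horizontal axis) for the 15 other reported AHR targets that were measured, with 95% intervals from limma, in blue for punicalagin, green for myricetin and ochre for quercetin. Filled points passed an adjusted p of 0.05, namely SLC7A5 (2.30) and SCIN (1.71) with punicalagin and EREG (1.16) and SCIN (1.32) with quercetin.

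Among the proteins that hold or help the receptor, few transcripts passed the test. Of 6 measured members of the cytoplasmic complex, 0 passed with punicalagin or myricetin, against 2.33% and 0.509% of all clusters. With quercetin 1 of 6 passed, against 3.92%. This was SRC, a tyrosine kinase of the complex, at 0.81 (limma adjusted p = 0.0475), a call that was lost without DMSO replicate 2 or 3 or either quercetin array, at up to 0.444. Of 6 measured coactivators and corepressors 0 passed in any of the 6 comparisons. Their median difference from DMSO was nevertheless -0.42 with punicalagin, -0.33 with myricetin and -0.34 with quercetin. Over all clusters the median was -0.05, 0.00 and -0.04. Lower than with DMSO were 5 of 6 with punicalagin, 5 of 6 with myricetin and 4 of 6 with quercetin. A joint shift of this list was not tested.

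Of 10 further proteins of the bHLH-PAS family, from which AHR and its partners come, 1 rose with each compound and 0 fell, against the shares of all clusters given above. ARNT2, a close relative of ARNT, measured 5.27, 5.02 and 5.44 with DMSO, 6.17, 6.41 and 6.29 with punicalagin, 6.20 and 6.13 with myricetin, and 5.92 and 5.74 with quercetin. All 7 treated arrays lay above the 3 DMSO arrays. The log2 difference was 1.05 with punicalagin (limma adjusted p = 0.0130), 0.92 with myricetin (0.0237) and 0.59 with quercetin (0.0614). The punicalagin call was lost without DMSO replicate 2 or punicalagin replicate 1 or 2, at up to 0.0847, and the myricetin call without DMSO replicate 2 or either myricetin array, at up to 0.345.

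ARNTL2, a clock partner protein that is also named BMAL2, measured 6.57, 6.39 and 6.20 with DMSO, 6.21, 6.24 and 6.44 with punicalagin, 6.26 and 6.22 with myricetin, and 7.57 and 7.46 with quercetin. It rose with quercetin, by 1.13 (standard error 0.15, limma adjusted p = 0.00117), in 12 of 12 alternatives. Against myricetin it was higher with quercetin as well (myricetin minus quercetin -1.27, limma adjusted p = 0.00291), which was lost without quercetin replicate 1 (0.0535).

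Of 3 measured genes of the supply of tryptophan-derived ligands, TDO2, which opens the tryptophan ring on the way to kynurenine, a ligand of AHR, rose with all 3 compounds. It measured 5.62, 4.17 and 3.77 with DMSO, 7.71, 8.23 and 6.93 with punicalagin, 6.98 and 7.51 with myricetin, and 9.23 and 9.18 with quercetin. The quercetin arrays were the highest. The log2 difference from DMSO was 4.69 with quercetin (limma adjusted p = 2.55e-04), 3.10 with punicalagin (0.0131) and 2.73 with myricetin (0.0305). The punicalagin call was lost without DMSO replicate 2 or punicalagin replicate 1 or 2, at up to 0.0981, and the myricetin call without DMSO replicate 2 or either myricetin array, at up to 0.435. Between myricetin and quercetin the difference of -1.96 did not pass (0.0926). IDO1 and IDO2, the other measured genes of this list, lay at or below 3.44 in every array, and neither passed against DMSO. The share of all clusters past the test was 2.33% with punicalagin, 0.509% with myricetin and 3.92% with quercetin.

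The hypoxia-inducible factors compete with AHR for ARNT. Of 8 measured targets of these factors, 1 rose with punicalagin and with quercetin, against 2.33% and 3.92% of all clusters in either direction. This was ADM, the peptide adrenomedullin, at 1.23 (limma adjusted p = 0.0150) and 0.83 (0.0404), and at 0.28 with myricetin (0.812). The punicalagin call was lost without punicalagin replicate 1 or 2, at up to 0.0577, and the quercetin call without DMSO replicate 3 or either quercetin array, at up to 0.441. Of 7 measured PARP family relatives of TIPARP 0 passed against DMSO with any compound, beside the shares of all clusters given above. Their median difference with quercetin was 0.23, against -1.72 for TIPARP itself. PARP9 was lower with myricetin than with quercetin (myricetin minus quercetin -1.12, limma adjusted p = 0.0444), a call that was lost without any of the 4 arrays of the comparison, at up to 0.338.

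Between punicalagin and quercetin 7 of the 55 measured genes of these lists passed, 1 higher and 6 lower with punicalagin, while 3.91% of all clusters passed, 437 of 830 of them higher. ARNTL2 (punicalagin minus quercetin -1.22, limma adjusted p = 0.00143) passed in 12 of 12 alternatives. SRC (-1.23, 0.00718), PARP9 (-1.22, 0.0114), EREG (-0.75, 0.0114), HIF1A (-0.81, 0.0166) and PARP10 (-0.60, 0.0498) were lost when single arrays were left out. HIF1A encodes the oxygen-regulated subunit that pairs with ARNT. ABCG2, a drug efflux transporter, was the gene that was higher with punicalagin (1.07, 0.0361). Each of the 6 calls other than ARNTL2 was lost without quercetin replicate 1, at adjusted p-values of 0.149 for SRC, 0.207 for PARP9, 0.192 for EREG, 0.219 for HIF1A, 0.408 for PARP10 and 0.457 for ABCG2. Against DMSO, EREG, ARNTL2 and SRC rose with quercetin as described, whereas HIF1A, PARP9, PARP10 and ABCG2 passed with neither compound.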

How the data were processed

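Each deposited value is a log2 intensity of a transcript cluster, made by the authors with RMA, which corrects the background, equalizes the distributions of the arrays and summarizes the probes. The methods name Partek Genomics Suite 7.0. GEO's processing field lists Affymetrix Expression Console and RMA too. It is not given in the sources used here if all 10 arrays went through RMA in 1 run. The values were used as deposited. Array signals have no read depth, and the number of arrays limits the precision. No 2 arrays held identical values, and the SD of the difference between arrays of a group was 0.198 for quercetin, 0.231 for myricetin and 0.275 to 0.478 for the others.

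GEO's platform table pairs 19460 clusters with 1 symbol, 1754 with several and 12083 with none. All 21214 named clusters entered limma 3.58.1 (lmFit and eBayes in R 4.3.3) without a filter on dim ones, and p-values were adjusted by Benjamini-Hochberg within each of the 6 comparisons at a threshold of 0.05. The fit of punicalagin against DMSO held the 6 arrays of these groups. For the other comparisons 1 fit of all 10 arrays was made, with 1 spread for the 4 groups, since 2 arrays alone give too few degrees of freedom. The script was tested on simulated data. Figures were drawn with matplotlib 3.10.9.

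The 7 genes, the lists of other pathway genes and the markers were chosen with earlier results of these data known. Of 91 listed genes, 80 had a cluster of their own, 3 shared a cluster with other genes and were left out, and 8 were not matched and are not analysed here. Named are the 7 genes, from each list the up to 3 genes that changed most and passed the test in a comparison, and the 3 clusters most correlated with AHR, CYP1B1 and TIPARP. NQO1 and POLK were named after their values were seen. Alternatives were the passage as a block, the 8 arrays of passages 7 and 8, all 10 arrays, and a trended and robust spread. Others were an unmoderated linear model, only clusters above the median, all 33297 clusters, values centred on array medians, and leaving out single arrays. For the listed genes the alternatives were added after seeing the data. The study's methods used an analysis of variance too, on punicalagin and DMSO. For the gene list, the study's methods name a threshold on the false-discovery rate with a fold change cut-off. Its results instead name a p-value with a fold change cut-off. No fold change cut-off was used here. Counts from the unmoderated model, called by adjusted p alone, therefore share the kind of threshold named in the methods, but not the fold change cut-off. Promoters came from RefSeq (GRCh38.p14).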

Additional observations from a re-analysis of the deposited data

How the results depend on the processing

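The fall of CYP1B1 and of TIPARP with quercetin passed the test in 12 of 12 alternatives each, and CYP1B1 passed in 11 of 11 between myricetin and quercetin and in 12 of 12 between punicalagin and quercetin. TIPARP passed in 7 of 11 and 9 of 12 of the latter, and the unmoderated linear model left 1 of the 7 clusters past the threshold in each of these comparisons (CYP1B1), with TIPARP at adjusted p-values of 0.09995 and 0.0896. The lower AHR of punicalagin kept its direction in 14 of 14 alternatives and passed in 0. Of 27 calls of listed genes and markers 4 passed in every alternative, namely TDO2 and EREG with quercetin against DMSO, and ARNTL2 with quercetin against DMSO and against punicalagin. Leaving out single arrays gave 2 clusters of 7 each time for quercetin against DMSO, 1 to 2 for myricetin or punicalagin against quercetin, and 0 for the other comparisons.

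The number of all clusters past the threshold depended more on the setting. For punicalagin against DMSO it was 1014 on all 10 arrays, 896 on the 8 arrays of passages 7 and 8, 0 in the unmoderated model and 206 over all clusters of the table, and 127 to 660 without single arrays. For myricetin against DMSO it was 361 on 8 arrays, 0 unmoderated, 50 over all clusters and 5 to 335 without single arrays. For quercetin against DMSO it was 1607 on 8 arrays, 269 unmoderated and 240 to 1639 without single arrays. For myricetin against quercetin it was 1077 on 8 arrays, 31 unmoderated, 155 over all clusters and 54 to 67 without single arrays. For punicalagin against myricetin it was 53 with a trended and robust spread, 0 unmoderated, 181 above the median level, 0 over all clusters and 0 to 361 without single arrays. For punicalagin against quercetin it was 111 unmoderated, 502 over all clusters and 66 to 794 without single arrays. The cause of these shifts was not tested.

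With the passage as a replicate block, 227 clusters passed for myricetin against DMSO and 703 for myricetin against quercetin, and no call of the 7 clusters changed. Deviations from the group means of same-passage arrays correlated at 0.362, -0.0967 and 0.319 for punicalagin and DMSO in passages 6, 7 and 8. For the other groups and DMSO they correlated at -0.114 to 0.0327. Arrays of different passages gave -0.442 to 0.331 for punicalagin and DMSO. These values do not settle whether arrays of a passage form pairs. The main fits held no passage term, as the study's methods name none.

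Directions turned only for differences that passed in no setting. With the block, the AHRR cluster was at -0.16 and CYP1A2 at 0.038 for myricetin against DMSO, CYP1A1 at 0.013 for quercetin against DMSO, and the AHRR cluster at 0.15, CYP1A1 at -0.13 and CYP1A2 at -0.023 for punicalagin against quercetin. On the 8 arrays, CYP1A1 was at 0.078 for punicalagin, the AHRR cluster at -0.23 for myricetin, and AHR at 0.044 and CYP1A1 at 0.11 for quercetin, each against DMSO, and the AHRR cluster was at 0.083, CYP1A1 at -0.035 and CYP1A2 at -0.12 for punicalagin against quercetin. With centring, the AHRR cluster was at -0.026 and CYP1A1 at -0.037 for myricetin against DMSO. Leaving out single arrays gave, for punicalagin against DMSO, -0.27 to 0.13 for CYP1A1 and -0.13 to 0.14 for CYP1B1. For myricetin against DMSO it gave -0.23 to 0.21 for the AHRR cluster, -0.095 to 0.051 for ARNT, -0.14 to 0.26 for CYP1A1 and -0.062 to 0.038 for CYP1A2. For quercetin against DMSO it gave -0.21 to 0.044 for AHR and -0.29 to 0.11 for CYP1A1. For punicalagin against quercetin it gave -0.17 to 0.083 for the AHRR cluster, -0.035 to 0.10 for CYP1A1 and -0.12 to 0.18 for CYP1A2. CYP1A1 and CYP1A2 gave no value among clusters above the median level, since both lie below it.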

Other observations

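Markers of monocytes and macrophages and of other cell types were compared between the same arrays. With quercetin CD68, a lysosomal glycoprotein of macrophages, rose by 1.13 (limma adjusted p = 0.0103) and PDGFRA, a growth factor receptor of fibroblasts, by 1.23 (0.00446). With punicalagin FCER1G, the signalling chain of Fc receptors, rose by 1.16 (0.0194). CD68 and FCER1G are monocyte and macrophage markers, of which 1 of 9 passed with quercetin and 1 of 9 with punicalagin. Over all clusters 3.92% and 2.33% passed. With quercetin 8 of 9 lay higher than with DMSO and 1 lower, at -0.53. With punicalagin 7 of 9 lay higher and 2 lower, down to -0.47. With myricetin 0 of 9 passed, against 0.509% of all clusters, while 6 lay higher and 3 lower, down to -1.05. Of 4 fibroblast markers, only PDGFRA passed against DMSO, and of 5 hepatocyte markers 0 passed in any of the 6 comparisons. The CD68 call was lost without either quercetin array (adjusted p up to 0.151), the PDGFRA call without quercetin replicate 2 (0.101), and the FCER1G call without DMSO replicate 2 or punicalagin replicate 1 or 2 (up to 0.111).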
